A study of Mus musculus with 7 samples.

Results

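The enzymes that make UDP-N-acetylglucosamine and UDP-galactose were examined in white fat from the epididymal depot, which lies beside the epididymis of male mice. There were 9 genes chosen by name, as nucleotide sugar enzymes of which some are known targets of the transcription factor XBP1s. Of these, 8 had a probe set that the platform annotation pairs with exactly 1 gene symbol, out of 19938 genes so named. Galk1, galactokinase, was not analysed here. Where a gene had several such probe sets, the one with the highest mean over all 7 libraries was used.

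The series compared 3 aP2-XBP1 transgenic samples with 4 wild type samples, all from male C57Bl/6J mice that were 17 weeks old and ate chow. The transgene places XBP1 under the aP2 promoter, that of Fabp4, which is used by adipocytes and is also known to be active in macrophages. The sources used here do not give the founder line or say whether animals were pooled. Replicates are numbered in the labels with no animal named, so the p-values rest on a spread between samples that could be partly technical.

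Cells turn fructose 6-phosphate, glutamine, acetyl-CoA and UTP into UDP-N-acetylglucosamine through the hexosamine pathway, and the product is used for N-glycans in the endoplasmic reticulum (ER) and Golgi and for O-GlcNAc on nuclear and cytosolic proteins. The Leloir pathway links galactose to UDP-glucose by way of UDP-galactose. XBP1s, the spliced form that IRE1 produces under ER stress, is known to activate hexosamine pathway genes in heart muscle cells of rodents, Gfpt1 among them.

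Promoter windows from RefSeq (build GRCm38.p6, 250 bases before to 50 bases after the start site) are shown for 4 of the genes, read 5′ to 3′ on the gene's strand, because the question put to these enzymes is their response to XBP1. Capitals mark CCACG on either strand, the letters that ER stress elements end in, together with the longer GCCACGT, which contains it. Gfpt1 and Gfpt2 encode enzymes of the same reaction and are set side by side. Pgm3 and Galk1 are shown because GCCACGT lies in their windows, as it does in that of Gfpt1.
Gfpt1, chr6:87042596-87042895, plus strand: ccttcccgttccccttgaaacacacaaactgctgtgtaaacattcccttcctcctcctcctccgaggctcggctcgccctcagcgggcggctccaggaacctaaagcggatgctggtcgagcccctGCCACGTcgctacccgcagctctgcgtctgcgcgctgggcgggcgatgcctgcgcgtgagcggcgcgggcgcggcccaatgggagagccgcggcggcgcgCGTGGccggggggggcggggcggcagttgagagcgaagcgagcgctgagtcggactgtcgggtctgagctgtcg
Gfpt2, chr11:49793905-49794204, plus strand: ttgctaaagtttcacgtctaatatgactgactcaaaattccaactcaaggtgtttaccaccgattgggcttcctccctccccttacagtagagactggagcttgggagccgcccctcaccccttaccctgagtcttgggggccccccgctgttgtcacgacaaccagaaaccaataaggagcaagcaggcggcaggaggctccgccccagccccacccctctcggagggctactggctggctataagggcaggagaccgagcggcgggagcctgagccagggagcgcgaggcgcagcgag
Pgm3, chr9:86571793-86572092, minus strand: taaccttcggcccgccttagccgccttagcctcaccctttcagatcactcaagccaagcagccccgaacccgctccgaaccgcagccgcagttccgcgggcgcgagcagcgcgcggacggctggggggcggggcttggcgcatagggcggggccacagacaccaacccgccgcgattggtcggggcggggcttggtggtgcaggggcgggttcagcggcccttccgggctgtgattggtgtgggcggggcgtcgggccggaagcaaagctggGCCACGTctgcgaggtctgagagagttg
Galk1, chr11:116012670-116012969, minus strand: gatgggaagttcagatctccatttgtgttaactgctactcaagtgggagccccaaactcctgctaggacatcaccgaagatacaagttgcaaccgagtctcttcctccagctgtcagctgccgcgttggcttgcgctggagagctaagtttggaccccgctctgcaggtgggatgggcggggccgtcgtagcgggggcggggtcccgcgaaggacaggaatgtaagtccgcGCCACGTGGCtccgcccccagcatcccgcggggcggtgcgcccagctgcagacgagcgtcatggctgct

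Windows were present for 8 of the 9 genes, 11 windows in all, and Gnpnat1 was not listed. GCCACGT, searched on both strands, was found in 3 of the 11 windows, against 2.58% of all 32851 promoter windows of this length. In Gfpt1 it lay at positions -124 to -118 relative to the start site. In Galk1 it was present on both strands, the copies overlapping in a 10-base palindrome, and in Pgm3 it lay after the start site. CCACG alone was found in 7 of the 11 windows, against 32.8% of all windows, and the window of Gfpt2 held none. The classical elements ERSE (CCAAT, then 9 free bases, then CCACG, in 0.119% of all windows), ERSE-II (ATTGG, then 1 free base, then CCACG, 0.0365%) and UPRE (TGACGTGG, 0.676%) were found in 0 of the 11. Windows of Xbp1, Dnajb9, Slc35b1, Gys1, Gbe1, Pgm1 and Oga, genes named further below, held neither GCCACGT nor any of these classical elements. The motifs were chosen after the values were seen. All matches are of letters and were not tested for binding.

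Expression was read as log2 values after RMA from 1 Affymetrix array per sample. Xbp1 read 9.66 to 9.99 in the 3 transgenic libraries and 8.90 to 9.19 in the 4 wild type libraries, a log2 difference of 0.77 (95% interval 0.52 to 1.03). Fabp4 read 12.24 to 12.34 in transgenic and 11.77 to 12.31 in wild type libraries. Transcripts of smooth muscle, and the epididymal transcripts Serpina1f, Spink8 and Defb42, were high in wild type replicates 1, 3 and 4. The other epididymis markers measured did not show this pattern, and Adam7 was highest in transgenic replicate 1, at 4.69. The mean level of 8 smooth muscle markers was 6.23 to 6.86 in transgenic fat, 6.80 in wild type replicate 2 and 9.02 to 9.57 in the other wild type libraries. Each enzyme was therefore also compared with wild type replicate 2 alone. In whole tissue, fewer cells of a type and less RNA per cell cannot be told apart.

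By limma, fitted to all 21789 probe sets with 1 gene symbol, 0 of the 8 enzymes passed an adjusted p of 0.05. The background was the same, 0% of all probe sets higher and 0% lower, with a smallest adjusted p of 0.622. At an unadjusted p under 0.05, 2 of the 8, Gfpt1 and Pgm3, were higher in transgenic fat, where 4.82% of all probe sets were higher and 3.12% lower. Without wild type replicate 1, or without transgenic replicate 2, 0 of the 8 were under this threshold. On the deposited values this threshold found 1050 probe sets higher and 679 lower, and with all arrays brought to a common median it found 1900 higher and 446 lower. Transgenic fat had the higher mean in 6 of the 8 enzymes, compared with 53.6% of the whole table. The median log2 difference of the 8 was 0.18, against 0.01 over all probe sets tested. That median was 0.038 without transgenic replicate 2 and -0.049 against wild type replicate 2 alone. In 0 of the 8 did the groups lie fully apart. Over the whole table, 3.38% of probe sets lay fully apart with transgenic fat higher and 2.44% with it lower.

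**Figure D1:**
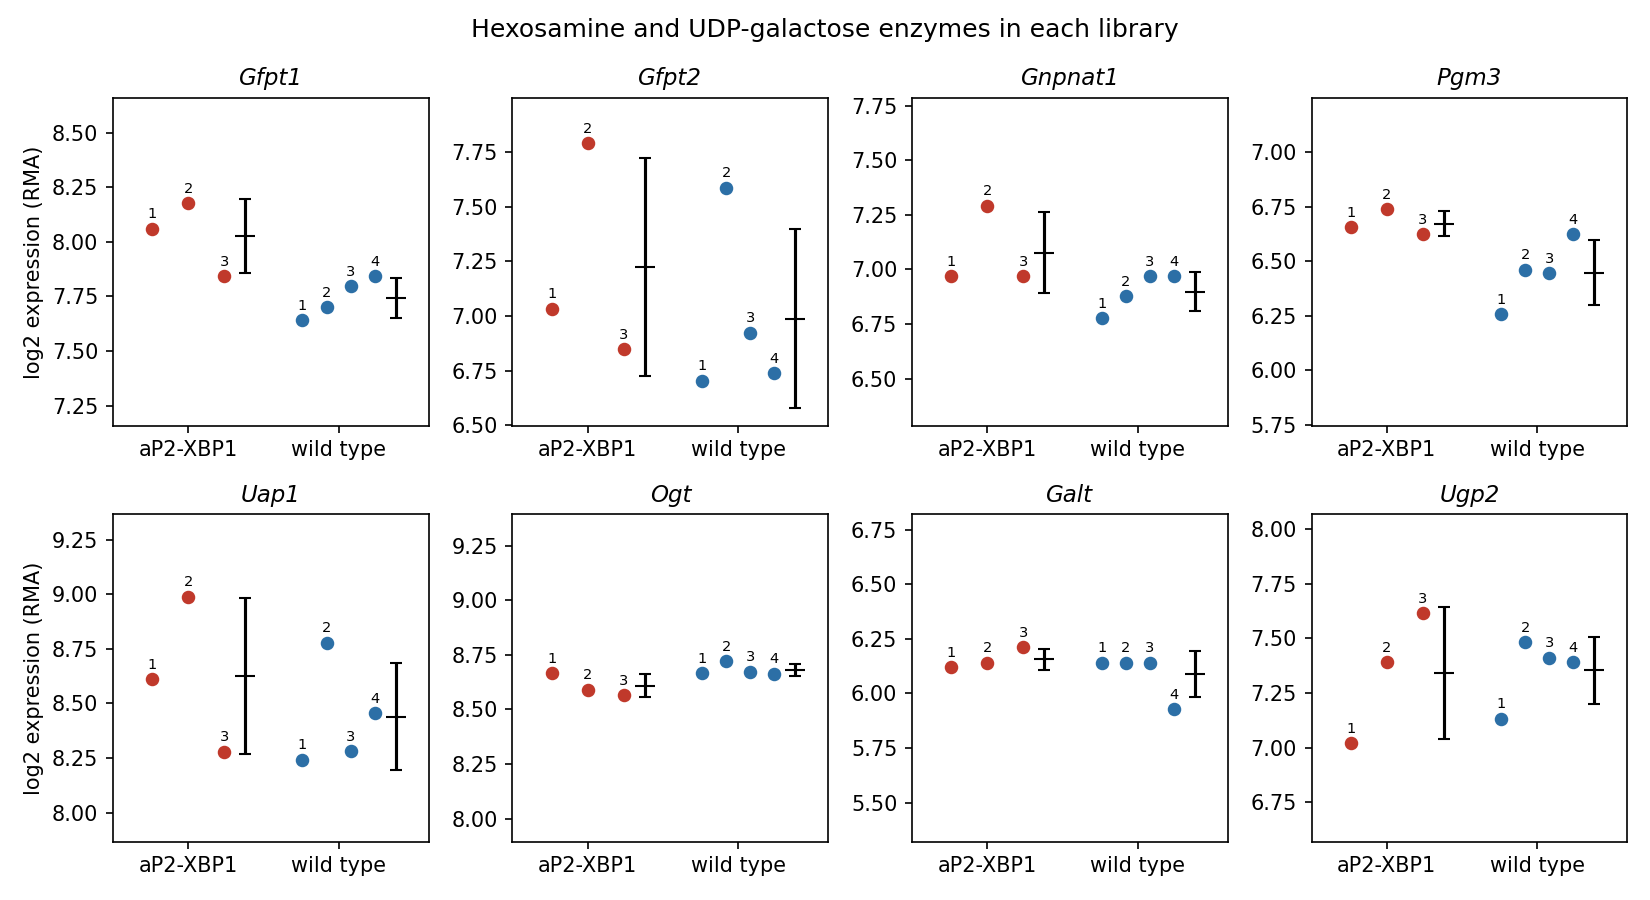
Log2 expression of the 8 measured enzymes in each library, aP2-XBP1 transgenic in red and wild type in blue, with replicate numbers beside the points and the mean ± SD as black bars (n = 3 and n = 4). All panels span the same range on the y axis. Gfpt1 and Pgm3 had higher transgenic means with groups that touch at 1 value, and Gfpt2 and Uap1 were high in replicate 2 of both genotypes.

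Gfpt1 encodes the glutamine:fructose-6-phosphate amidotransferase that opens the hexosamine pathway and sets its rate. Its probe set (10539773) read 8.06, 8.18 and 7.84 in transgenic replicates 1 to 3, against 7.64, 7.70, 7.80 and 7.84 in wild type replicates 1 to 4. The lowest transgenic library held exactly the value of the highest wild type library, and the other 2 transgenic libraries lay above all wild type libraries. The mean was 8.03 ± 0.17 (SD, n = 3) in transgenic and 7.74 ± 0.09 (SD, n = 4) in wild type fat. This is 1.22-fold, a log2 difference of 0.28 (SE 0.09, 95% interval 0.06 to 0.50, limma adjusted p = 0.622). Leaving out any 1 library gave differences from 0.21 to 0.37, and wild type replicate 2 as the only control gave 0.33 (limma adjusted p = 0.683), a comparison that rests on a single control library.

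Such shared values are common in these data. Identical values in at least a pair of libraries occurred in 69.5% of all probe sets tested and in 5 of the 8 enzymes, so that touching groups are counted here as overlapping.

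Gfpt2, the second amidotransferase, known from connective tissue and the nervous system, had another pattern. It read 7.03, 7.79 and 6.85 in transgenic replicates 1 to 3, against 6.70, 7.59, 6.92 and 6.74 in wild type replicates 1 to 4. Replicate 2 of either genotype lay above the remaining 5 libraries, which spanned 6.70 to 7.03. The log2 difference of 0.24 had a 95% interval of -0.50 to 0.97 (limma adjusted p = 0.798). It was -0.048 without transgenic replicate 2 and -0.36 against wild type replicate 2 alone, so its direction rested on single libraries.

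Gnpnat1 adds the acetyl group to glucosamine 6-phosphate. Its brighter probe set (10460108) read 6.97, 7.29 and 6.97 in transgenic replicates 1 to 3, against 6.78, 6.88, 6.97 and 6.97 in wild type replicates 1 to 4. Only transgenic replicate 2 stood above the wild type range, and the other 2 transgenic libraries held the same value as wild type replicates 3 and 4. The log2 difference was 0.18 (95% interval -0.06 to 0.41, limma adjusted p = 0.660), and it was 0.07 without transgenic replicate 2. The dimmer probe set of the gene (10419216), annotated with the same transcripts, differed by 0.15. The annotation does not settle whether either probe set reads a near-identical copy of the gene.

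Pgm3, phosphoacetylglucosamine mutase, carries out the isomerisation before the last step. It read 6.66, 6.74 and 6.62 in transgenic replicates 1 to 3, against 6.26, 6.46, 6.45 and 6.62 in wild type replicates 1 to 4. The transgenic libraries lay close together, and the lowest of them held the value of wild type replicate 4. The mean was 6.67 ± 0.06 (SD, n = 3) in transgenic and 6.45 ± 0.15 (SD, n = 4) in wild type fat, 1.17-fold apart (log2 difference 0.22, SE 0.09, 95% interval 0.01 to 0.44, limma adjusted p = 0.622). Leaving out 1 library gave 0.16 to 0.28, and wild type replicate 2 alone gave 0.21.

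Uap1, the pyrophosphorylase that joins N-acetylglucosamine 1-phosphate to UTP, followed the libraries of Gfpt2. It read 8.61, 8.99 and 8.28 in transgenic replicates 1 to 3, against 8.24, 8.78, 8.28 and 8.46 in wild type replicates 1 to 4. Replicate 2 was the highest library of each genotype. The log2 difference was 0.19 (95% interval -0.30 to 0.67, limma adjusted p = 0.765). It was 0.01 without transgenic replicate 2 and -0.15 against wild type replicate 2 alone.

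All 5 enzymes on the way to UDP-N-acetylglucosamine (Gfpt1, Gfpt2, Gnpnat1, Pgm3 and Uap1) were highest in transgenic replicate 2, which also had the highest Xbp1. A link to the level of Xbp1 was not tested. Among wild type libraries, replicate 4 was highest or tied for Gfpt1, Gnpnat1 and Pgm3, and replicate 2 for Gfpt2 and Uap1. The map of deviations sets out these patterns.

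**Figure D2:**
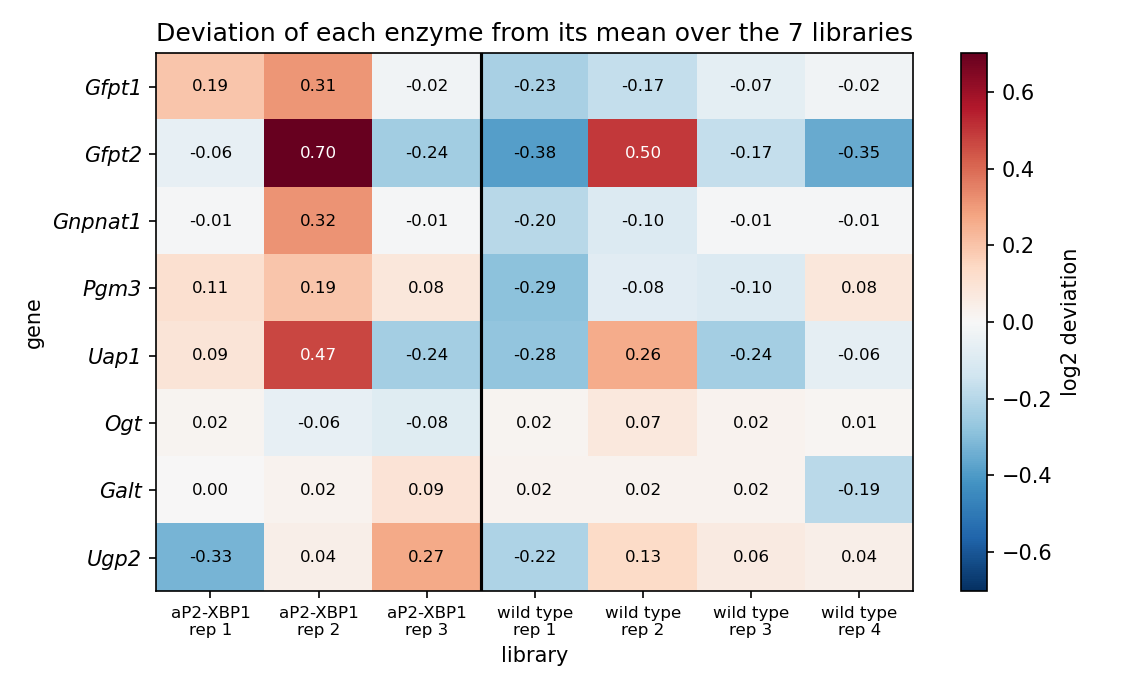
Deviation of each enzyme (rows) from its own mean over the 7 libraries, on the log2 scale, with aP2-XBP1 libraries left of the black line and wild type libraries right of it. Transgenic replicate 2 deviated upward in the 5 rows from Gfpt1 to Uap1, by 0.19 in Pgm3 to 0.70 in Gfpt2, and wild type replicate 2 deviated upward by 0.50 in Gfpt2 and 0.26 in Uap1.

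Ogt, which places O-GlcNAc on proteins with UDP-N-acetylglucosamine as the donor, varied little. It read 8.67, 8.59 and 8.57 in transgenic replicates 1 to 3, against 8.67, 8.72, 8.67 and 8.66 in wild type replicates 1 to 4. Transgenic replicates 2 and 3 lay below all wild type libraries and transgenic replicate 1 lay within their range. The log2 difference was -0.07 (95% interval -0.17 to 0.03, limma adjusted p = 0.660).

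Oga, the hydrolase that removes O-GlcNAc, was named from the list of other hexosamine genes. It read 7.55, 7.63 and 7.45 in transgenic replicates 1 to 3, against 7.66, 7.70, 7.76 and 7.68 in wild type replicates 1 to 4. Every transgenic library lay below every wild type library, as in 2.44% of all probe sets. The log2 difference was -0.16 (95% interval -0.29 to -0.03, limma adjusted p = 0.622), and it was also -0.16 against wild type replicate 2 alone. Of the 11 measured genes in that list, which hold the salvage, deamination and sialic acid steps, 0 passed. The transgenic mean was higher for 2 and lower for 9 of them, and the median difference was -0.07.

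Ugp2 makes UDP-glucose, the partner of galactose 1-phosphate in the Leloir pathway and the donor for glycogen. It read 7.02, 7.39 and 7.62 in transgenic replicates 1 to 3, against 7.13, 7.48, 7.41 and 7.39 in wild type replicates 1 to 4. The transgenic libraries held both the lowest and the highest value of the 7. The log2 difference was -0.01 (95% interval -0.38 to 0.36, limma adjusted p = 0.985), an interval that leaves room for changes in either direction. Its sign turned to 0.029 with all arrays brought to a common median.

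Galt exchanges uridylyl groups between UDP-glucose and galactose 1-phosphate. It read 6.12, 6.14 and 6.21 in transgenic replicates 1 to 3, against 6.14 in wild type replicates 1, 2 and 3 and 5.93 in wild type replicate 4. The log2 difference of 0.07 (95% interval -0.09 to 0.23, limma adjusted p = 0.746) was 0.02 without wild type replicate 4, the single low library.

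**Figure D3:**
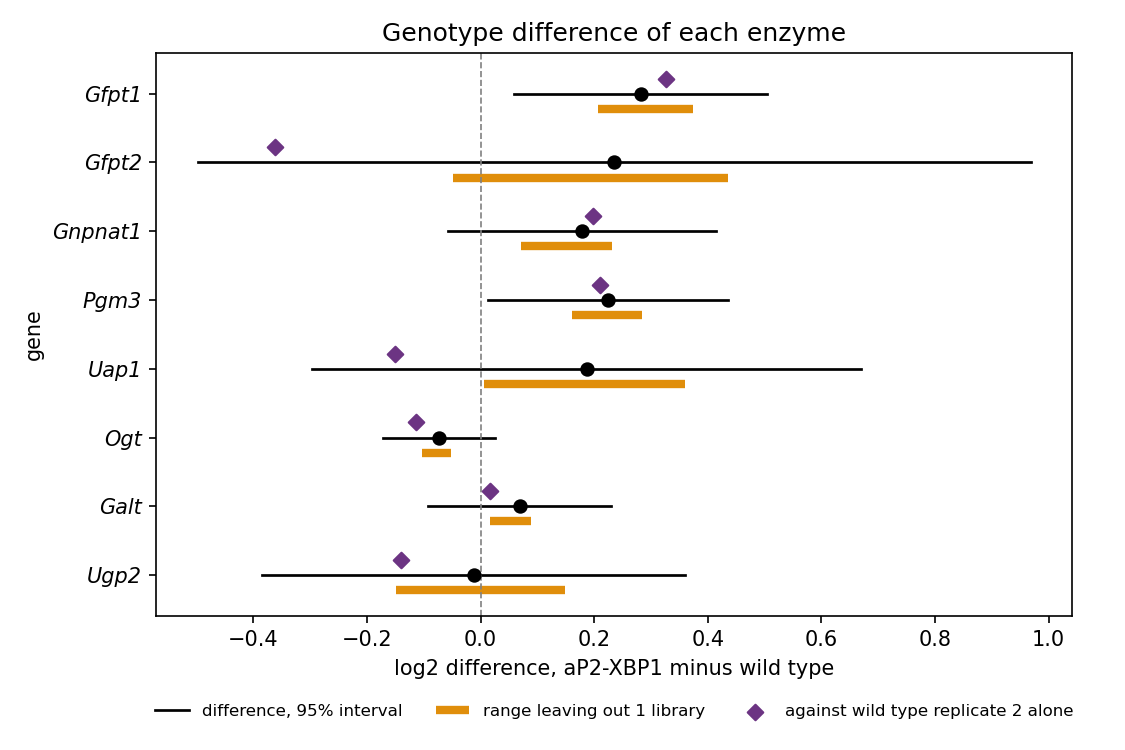
Log2 difference of each enzyme, aP2-XBP1 minus wild type (x axis), with its 95% interval in black, the range over fits that each leave out 1 library in orange, and the difference from wild type replicate 2 alone as a purple diamond. The intervals of Gfpt1 and Pgm3 lie above 0, and the diamonds of Gfpt2 and Uap1 lie below 0, at -0.36 and -0.15.

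Other genes that make, carry or use nucleotide sugars were read from 6 lists, in which 71 of 75 genes were measured. At limma's adjusted p of 0.05, 0 of the 71 passed. At an unadjusted limma p under 0.05 there were 12 higher and 2 lower, against 4.82% and 3.12% of all probe sets. Higher transgenic means were found for 38 and lower ones for 33, where 53.6% of all probe sets were higher. Groups did not overlap for 9 genes higher and 2 lower, against 3.38% and 2.44% of all probe sets.

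Of the 11 measured genes in the list of other UDP-glucose and UDP-galactose genes, 0 passed, 6 had the higher mean in transgenic fat and 5 in wild type fat, and the median difference was 0.05. In this list 4 had an unadjusted limma p under 0.05, all higher in transgenic fat, where 4.82% of all probe sets were higher. They were Gbe1 (glycogen branching enzyme), Gys1 (glycogen synthase), Gyg (glycogenin) and Pgm1, which makes glucose 1-phosphate. Gys1 read 7.57, 7.73 and 8.03 in transgenic replicates 1 to 3, against 6.80, 7.42, 6.77 and 7.53 in wild type replicates 1 to 4. Its groups did not overlap, and the log2 difference was 0.65 (95% interval 0.09 to 1.22, limma adjusted p = 0.622). Gyg differed by 0.45, also without overlap, where 3.38% of all probe sets lay fully apart with transgenic fat higher. Gbe1 differed by 1.14 and Pgm1 by 0.62, both with overlap and chosen after their values were seen. Against wild type replicate 2 alone the differences were 0.36 for Gys1, 0.28 for Gyg, 0.48 for Gbe1 and 0.16 for Pgm1.

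Adipocyte markers also had the higher mean in transgenic fat, and their mean level overlapped between the groups. The mean level of 12 adipocyte markers was 10.81 to 10.99 in transgenic fat and 10.12 to 10.82 in wild type fat. The highest wild type value, 10.82, was in replicate 2 and lay above that of transgenic replicate 2, 10.81. A higher transgenic mean was found for 12 of the 12 markers, against 53.6% of all probe sets. Their part in the differences of the enzymes and glycogen genes was not tested.

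Slc35b1 had the smallest p of the 14 nucleotide sugar transporters measured. It belongs to the transporter family that carries nucleotide sugars and is known, from human cells, to bring ATP into the ER. It read 7.63, 8.25 and 7.71 in transgenic replicates 1 to 3, against 7.23, 7.08, 7.30 and 7.02 in wild type replicates 1 to 4. Every transgenic library lay above every wild type library, and transgenic replicate 2 was the highest. The difference was 1.63-fold (log2 difference 0.70, SE 0.16, 95% interval 0.31 to 1.09, limma adjusted p = 0.622). It stayed between 0.51 and 0.82 when any 1 library was left out and was 0.78 against wild type replicate 2 alone. Slc35b4, a carrier of UDP-xylose and UDP-N-acetylglucosamine, differed by 0.14, also without overlap. Such separation with transgenic fat higher was found in 3.38% of all probe sets. The Golgi carriers of UDP-galactose (Slc35a2, 0.05) and UDP-N-acetylglucosamine (Slc35a3, -0.07), singled out after their values were seen, had overlapping groups. Of all 14 transporters, 10 had the higher mean in transgenic fat and 4 in wild type fat, and 0 passed.

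UTP, the nucleotide that Ugp2 and Uap1 consume, comes from de novo synthesis and from salvage of uridine. Of 17 genes of UTP supply, 0 passed, 11 were higher and 6 lower by their transgenic mean, and the median difference was 0.02. Uck2, a uridine kinase, read 5.87, 5.90 and 5.97 in transgenic replicates 1 to 3, against 5.76, 5.69, 5.69 and 5.66 in wild type replicates 1 to 4. These groups lay apart by a small step, with a log2 difference of 0.21 (95% interval 0.11 to 0.32, limma adjusted p = 0.622). Uck1, the other uridine kinase, differed by 0.42 and the nucleoside transporter Slc29a1 by -0.22, both without overlap. Among all probe sets, 3.38% lay fully apart with transgenic fat higher and 2.44% with it lower. Cad, the enzyme that starts pyrimidine synthesis, was singled out after its values were seen. It read 5.95 in all 3 transgenic libraries and 5.86 to 6.07 in wild type libraries.

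In the list of GDP-mannose and GDP-fucose genes 0 of 9 passed and 6 had a higher transgenic mean. Gmds (0.30) and Fcsk (0.23), of GDP-fucose synthesis, and Pmm1 (0.31), a phosphomannomutase, did not overlap. Over all probe sets, 3.38% lay fully apart with transgenic fat higher. Of 9 galactosyltransferases, which use UDP-galactose in the Golgi, 0 passed and 6 had a lower transgenic mean. The smallest p belonged to B4galt1 (-0.12) and B4galt4 (-0.13), both with overlap.

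A list of genes taken as XBP1s output gave a scale for these values, and whether XBP1s drives each of them was not tested. Of its 14 genes, with Pdia6, Hspa5 and Dnajb9 among them, 14 had a higher transgenic mean, against 53.6% of all probe sets. Groups did not overlap for 10, all with transgenic fat higher, against 3.38% of all probe sets. The smallest differences were those of Sec61a1 (0.08), Sec61b (0.13) and Sec24d (0.15), all with overlap. The list's median log2 difference was 0.70, against 0.18 for the 8 enzymes. These genes were known from earlier results to be higher here, and 0 passed limma's adjusted p of 0.05. At an unadjusted limma p under 0.05, 11 were higher, against 4.82% of all probe sets. Their mean level was 8.29, 8.71 and 8.13 in transgenic replicates 1 to 3 and 7.69 to 7.77 in wild type libraries. The order of the transgenic libraries (replicate 2, then 1, then 3) was that of Xbp1, and also of Gfpt1, Gfpt2, Pgm3 and Uap1. Gfpt2 and Uap1 were also high in wild type replicate 2, where Xbp1 read 9.07, inside its wild type range. An order of 3 libraries is a description here, and its link to Xbp1 was not tested.

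**Figure D4:**
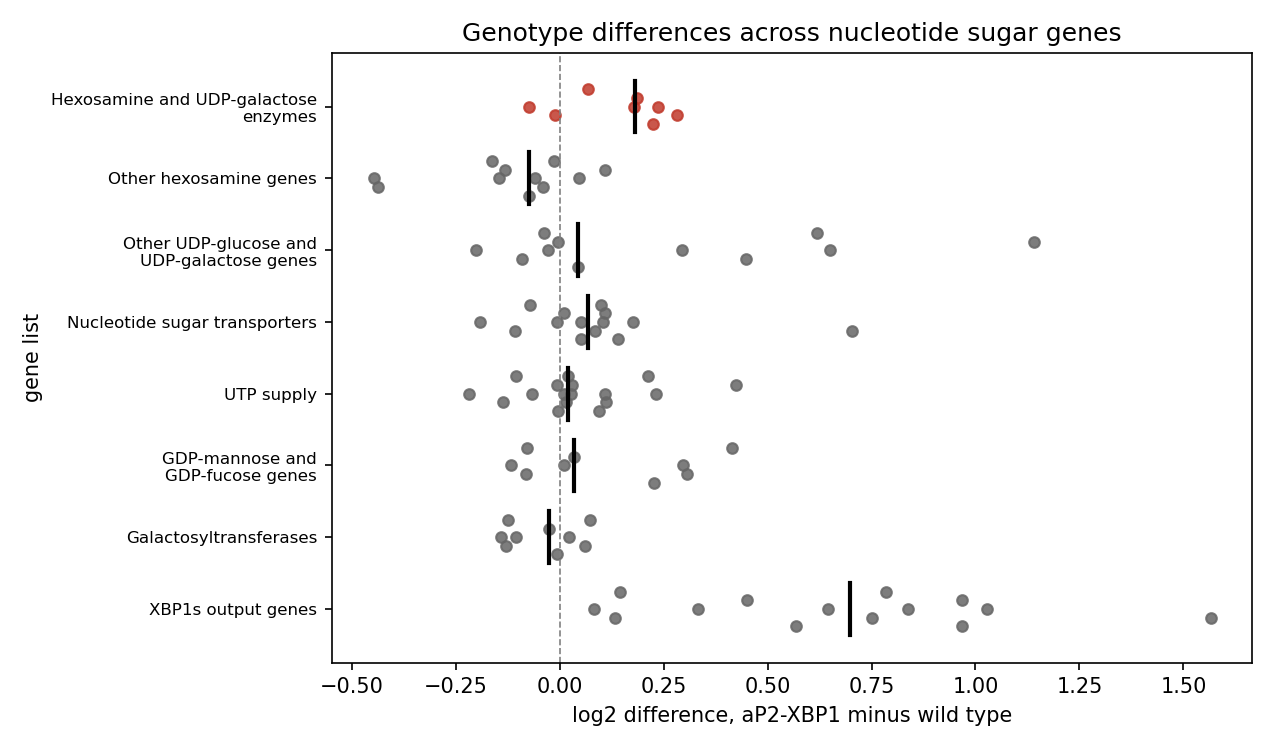
Log2 differences, aP2-XBP1 minus wild type (x axis), of the 8 enzymes (red) and of the genes of 7 further lists (grey), with a point for each gene and a black line at each list's median. The 8 enzymes had a median of 0.18 and the genes taken as XBP1s output one of 0.70, and the other 6 lists had medians between -0.07 and 0.07.

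The genes with patterns nearest to each enzyme were found by Pearson's r over the 7 libraries among 9618 brighter named genes, as a description. With so many genes and 7 points that share genotype and library, high values arise readily. Nearest to Gfpt1 were Acer2, a ceramidase, and Ddost, a subunit of oligosaccharyltransferase (r = 0.99 and 0.98), followed by Unc13b, Rpn2, also of oligosaccharyltransferase, and Creld2. Ddost read 9.52, 9.77 and 9.29 in transgenic replicates 1 to 3, against 9.05, 8.99, 9.17 and 9.23 in wild type replicates 1 to 4. Nearest to Gfpt2 were Cd55, a complement regulator, and Alb, albumin (both r = 0.97). Alb read 6.18, 7.97 and 6.20 in transgenic replicates 1 to 3, against 5.23, 7.37, 5.53 and 5.41 in wild type replicates 1 to 4, and so was high in replicate 2 of both genotypes. For Uap1 the list began with Apoa1 and Gfpt2 (r = 0.93 and 0.92). Pgm3 lay nearest to Zfyve21 and Errfi1 (both r = 0.98), and Gnpnat1 to Osbp and Erp44 (r = 0.99 and 0.98). Ogt lay nearest to Smad4 (r = 0.99), Galt to H2-Q2 and Ugp2 to Rpl24.

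Markers of other cell types differed between libraries as well. The mean level of 14 epididymis markers was 2.71 to 3.17 in transgenic fat, 2.65 in wild type replicate 2 and 4.15 to 4.36 in the other wild type libraries. That higher mean came from Serpina1f, Spink8 and Defb42. Serpina1f, an epididymal marker, read 2.83 to 3.73 in transgenic fat, 2.74 in wild type replicate 2 and 10.70 to 11.50 in the other wild type libraries, although 10 of the 14 markers had a higher transgenic mean. All 8 smooth muscle markers had a lower transgenic mean. Macrophage markers (8) ran from 8.14 to 8.40 in transgenic and from 7.68 to 8.97 in wild type fat, with 7 of the 8 lower by their transgenic mean. The 6 endothelial markers ran from 8.10 to 8.38 in transgenic and from 7.80 to 8.24 in wild type fat, and the 7 progenitor and fibroblast markers from 9.08 to 9.20 and from 8.89 to 9.41. Within the progenitor list, Pi16 read 6.31 in transgenic replicate 2 and 5.92 in wild type replicate 2, against 4.93 to 5.53 in the other 5 libraries. It was thus high in the same libraries as Gfpt2, and was singled out after its values were seen. The other markers of that list did not share this pattern. Pdgfra was lowest in transgenic replicate 2, at 7.95, and Dpp4 read 7.70 there, against 8.15 in transgenic replicate 1. The part of these cell type markers in the differences of the enzymes was not tested.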

How the data were processed

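RNA of 3 aP2-XBP1 transgenic and 4 wild type samples was read on Affymetrix arrays with 1 colour. The deposited values are log2 expression, made by the authors with RMA per the submitters' processing notes, so a shift of all genes in a genotype would not be seen. The version of RMA is not given in the sources used here, and scanner files were not used. The table holds 35556 probe sets, of which 21789 had exactly 1 gene symbol, 1621 several and 12146 none. Arrays have no read depth, and their number limits the precision.

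Transgenic minus wild type differences were fitted over the 21789 probe sets by lmFit and two-sided eBayes of limma 3.58.1 (R 4.3.3) on a design that held genotype alone. Adjusted p-values are Benjamini-Hochberg over all of them, at a threshold of 0.05, and folds are 2 raised to the difference. The fit was tested on simulated data. Figures and tables used Python 3.11.15, pandas 2.3.3 and matplotlib 3.10.9.

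The enzymes, lists and markers were chosen with earlier results of these data known. Named genes were the enzymes, Xbp1 and Fabp4. From each list they were the genes with groups that do not overlap and an unadjusted p under 0.05, or else the 2 of smallest p. The 5 nearest patterns per enzyme were taken among genes brighter than the median, leaving aside olfactory, vomeronasal, predicted, microRNA and small nucleolar genes. The promoter motifs were chosen after the values were seen. Galk1, Gpi1, Gnpda1 and B4galt2 were not analysed here. Alternatives were a replicate block, quantile normalization again, a common median, a filter on dim probe sets, other choices of rows, array weights (statmod 1.5.0), a robust prior with an intensity trend, leaving out each library, and wild type replicate 2 as the only control.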

Additional observations from a re-analysis of the deposited data

Results flagged for a closer look

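Among 33 named genes, a wild type library lay far from the other 3 in 3 cases, by Dixon's ratio of its gap to the whole range. For values without ties, chance flags about 1 in 20. Ogt read 8.72 in wild type replicate 2, against 8.66 to 8.67 in the others. Galt read 5.93 in wild type replicate 4, where the other 3 shared the value 6.14. B4galt4 read 5.49 in wild type replicate 4, where the other 3 shared the value 5.17. In Galt and B4galt4 the ratio was 1 because the other 3 values were identical, so that rate does not apply to them.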

How the results depend on the processing

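The call that 0 of 8 enzymes passed held under all 17 alternatives, those that leave out 1 library included, and Gfpt1, Pgm3, Gnpnat1, Ogt and Galt kept their direction. Gfpt1 ranged from 0.21 to 0.37, with limma adjusted p from 0.213 to 0.817, and Pgm3 from 0.16 to 0.28. Directions reversed for Gfpt2 (-0.048 without transgenic replicate 2, up to 0.44 when another library was left out, and -0.36 against wild type replicate 2 alone) and for Uap1 (-0.15 against that library alone). The difference of Ugp2, near 0, turned to 0.029 with a common median, 0.03 without wild type replicate 2, 0.01 without wild type replicate 3 and 0.15 without transgenic replicate 1. The median of the 8 ran from 0.038 (without transgenic replicate 2) to 0.24 when 1 library was left out, and was -0.049 against wild type replicate 2 alone; the cause was not tested. The number with a higher transgenic mean ran from 5 to 7 when 1 library was left out, and was 4 against wild type replicate 2 alone. Across the table, 0 to 91 probe sets were called when 1 library was left out. The 91, of which 7 were higher and 84 lower, came without wild type replicate 2, and none of the 8 enzymes was among them. Leaving out any other library called 0 probe sets in the whole table. The unchanged call for the 8 enzymes therefore carries little weight in those fits. Same-numbered samples did not deviate together over all probe sets (correlations of -0.14, -0.09 and 0.06), and differently numbered ones ran from -0.18 to 0.14. With deviations taken from means of 3 and 4 libraries, these values cannot settle whether the numbers pair the samples. The fit with the replicate block called 0 probe sets, with a median of 0.17 for the 8 and 6 higher. The number of arrays, 3 against 4, limits the precision.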
